A study of Mus musculus with 4 samples.

Results

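The DEAD and DEAH box helicases are ATP-driven enzymes that remodel RNA and RNA-protein complexes, and this account follows their transcripts in mouse embryonic stem cells after knockdown of Chd4, the remodelling ATPase of the NuRD complex. The members were all genes whose probe sets carried 1 gene symbol beginning with Ddx or Dhx in the platform annotation, without Ddx4, Ddx58 and Dhx58. This gave 48 of the 18193 genes with 1 symbol on the array, 33 named Ddx and 15 named Dhx, read by 106 probe sets. The name rule used no signal value. Of the 48 members, 47 lay above the filter on dim signal (42.4) and were tested, and Ddx60 was below it.

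All cells were J1 embryonic stem cells of the Chd4i-1 line, which carries a doxycycline-inducible (Tet-on) RNAi construct against Chd4, so the control cells held the construct too. The control group (n = 2 arrays) had no doxycycline, and the knockdown group (n = 2) had 5 ng/ml doxycycline, with harvest after 3 days. Both were kept on gelatin with 15% fetal bovine serum and leukaemia inhibitory factor. Only 1 RNAi line was analysed here, and doxycycline without the construct was not, so the drug, the RNAi and the loss of Chd4 cannot be told apart.

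Named for the residues of their ATPase motif, DEAD box proteins mostly open short RNA duplexes locally, while DEAH box proteins mostly move along a strand. Members act at nearly every step of RNA life: assembly and release of the spliceosome, ribosome building in the nucleolus, export, translation, storage and decay. Dividing stem cells make many ribosomes and splice many transcripts, and most of these genes are active in most cell types. A few members, such as Ddx25 and Ddx43, are known mainly from germ cells.

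Values are MAS5 signals per probe set on a linear scale, and each gene was read by whichever of its probe sets was brightest on average (log2 scale). A signal depends on its probes, so signals are not compared between genes. Array medians lay between 73.4 and 79.4, and no scan or batch label was used here. Chd4 itself was lower at its 3 probe sets, at 48.5%, 56.1% and 65.0% of control. All 8 embryonic stem cell markers lay above the median probe set (71.8), with a summed signal of 98300 and 99384 on the control arrays and 101030 and 99188 after knockdown. Within that sum Esrrb and Klf4 fell (log2 -0.29 and -0.25) and Utf1 and Dppa5a rose (0.31 and 0.19). Of 7 fibroblast markers 6 were under that median, as were 6 of 7 primitive endoderm markers. The summed signal of 7 trophectoderm markers was 1578 and 1670 in controls and 2466 and 2508 in knockdown arrays. Of these Krt18 and Krt7 rose, Krt8, Eomes and Hand1 did not pass (log2 0.14, -0.23 and -0.10) and the other 2 were under the filter. For 7 fibroblast markers the sum was 322 and 400 against 771 and 666. Its rise was that of Thy1 (mean 188 against 574), while Col1a2 did not pass (adjusted p = 0.724) and the other 5 were under the filter. The sum of 7 germ cell markers was 1733 and 1980 against 2309 and 2565, and that of 7 primitive endoderm markers 378 and 374 against 480 and 436. The part of these shifts in the results was not tested, and in bulk RNA fewer cells of a type cannot be told apart from less RNA per cell.

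Most helicase genes differed little in signal between the groups, and 34 of the 39 that did not pass lay within 0.2 of 0 on the log2 scale. Of 47 tested, 8 (17.0%) passed at an adjusted p under 0.05 in limma, 4 higher and 4 lower, against 20.5% of all 12615 genes tested, of which 11.7% were higher and 8.81% lower. Ddx25, Ddx46, Ddx6 and Dhx30 fell, and Dhx32, Ddx59, Ddx1 and Ddx39b rose. Of the members 6 of 32 tested Ddx and 2 of 15 tested Dhx genes were among these. The share of members that passed was near the background and is no result about the family. The calls rested on a variance model in which the expected spread follows the signal. Without that trend 0 members passed in limma, with 9 at an unadjusted p under 0.05, while 421 of all genes (3.34%) did. With the trend 16 members had an unadjusted p under 0.05, where 33.8% of all genes did. Averaging the probe sets of each gene left 1 member higher and 2 lower, where 11.8% of all genes passed.

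The size of the differences was small. The median absolute log2 difference was 0.13 over the members and 0.21 over all genes tested, with a median standard error of 0.083 and 0.13. Ddx25 alone moved by 1.5-fold or more, and 14.8% of all genes did. It also passed, and 8.47% of all genes both moved this far and passed. All 47 tested members lay above the median probe set, and they were not compared with genes of like signal. The median log2 difference was -0.012 over the members and 0.014 over all genes, with 19 members above 0 and 28 below (51.9% of all genes were above 0). In 29 of the 47 (61.7%) the groups did not overlap, 10 higher and 19 lower, and 60.6% of all genes showed this.

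**Figure D1:**
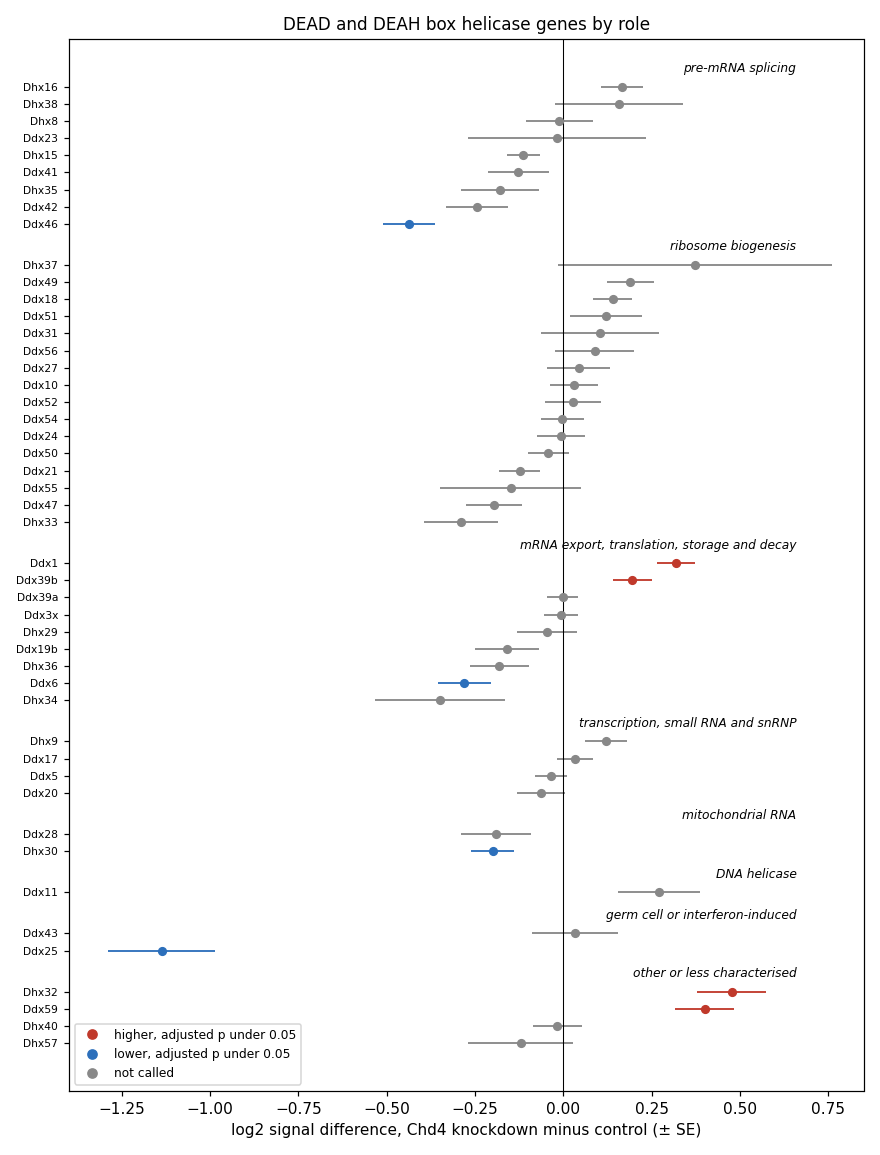
Log2 signal difference (Chd4 knockdown minus control, x axis) of the 47 tested helicase genes, grouped by role on the y axis; points are fitted differences and bars are standard errors (n = 2 arrays per group). Ddx25 stands apart at -1.14, and the 39 genes that did not pass lie between -0.35 and 0.37.

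Ddx25, an RNA helicase gene known from the testis, had signals of 669.8 and 579.2 on the control arrays and 251.9 and 318.6 after knockdown. Both knockdown values were well under both control values, although the arrays within each group differed from each other as well. It fell 2.20-fold (log2 -1.14 ± 0.15 SE, adjusted p = 0.000439 in limma). It was read by 1 probe set only. Ddx43, which is also known from germ cells, had 496.9 and 495.6 on the control arrays and 477.0 and 540.8 after knockdown. Its groups overlapped (log2 0.033 ± 0.12, adjusted p = 0.881). Germ cell markers were measured beside these genes: of 6 tested in limma, Dazl and Stra8 rose and 0 fell, with 3 at an unadjusted p under 0.05 and all 6 above 0. Ddx60, an interferon-inducible member, had 7.42 and 26.1 on the control arrays and 62.8 and 33.1 after knockdown, all below the median probe set, and was not tested.

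Among the helicases of the spliceosome, 1 of 9 fell and 0 rose in limma, with 4 at an unadjusted p under 0.05. Of all genes 8.81% fell, 11.7% rose and 33.8% had such a p. Ddx46, the relative of yeast Prp5 that helps the U2 particle bind the branch site, had 1924 and 1890 on the control arrays and 1407 and 1409 after knockdown. The replicates lay close together and the groups were clearly apart. It fell 1.35-fold (log2 -0.44 ± 0.073 SE, adjusted p = 0.00189). All 5 of its probe sets were below 0, from -0.44 to -0.17, and 3 of them passed when tested among all probe sets, where 14.2% did.

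The remaining splicing helicases did not pass. Ddx42, linked to the SF3b part of the U2 particle, had 1220 and 1171 against 1041 and 978.3 (log2 -0.24 ± 0.087, adjusted p = 0.0692). Dhx16, the Prp2 relative that activates the spliceosome, had 4292 and 4083 against 4602 and 4793 (0.17 ± 0.059, adjusted p = 0.0702). Dhx15, the Prp43 relative that takes spent spliceosomes apart, had 12917 and 12544 against 11829 and 11713 (-0.11 ± 0.046, adjusted p = 0.111). These 3 genes had groups that did not overlap, with Dhx16 on the higher side. Under quantile normalization Dhx15 passed as lower (log2 -0.16, adjusted p = 0.0196). Dhx35 and Ddx41, found in the catalytic spliceosome, had log2 differences of -0.18 and -0.13. The Prp16 and Prp22 relatives Dhx38 and Dhx8, which act at the catalytic steps and at mRNA release, stood at 0.16 and -0.012. Ddx23, the Prp28 relative, stood at -0.018, with a 95% interval from -0.57 to 0.53.

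Helicases that build ribosomes in the nucleolus gave 0 calls among 16 in limma, with 4 at an unadjusted p under 0.05. Of all genes 20.5% passed and 33.8% had such a p, and no test was made of the role. Their log2 differences ran from -0.29 to 0.37 with a median of 0.030. Ddx49 had 2250 and 2320 on the control arrays and 2543 and 2670 after knockdown (log2 0.19 ± 0.067, adjusted p = 0.0687). Dhx33, which is known to act in rRNA synthesis, had 773.1 and 756.5 against 595.9 and 657.9 (-0.29 ± 0.10, adjusted p = 0.0747). Their groups did not overlap, 1 on the higher and 1 on the lower side. The same held for Ddx18, at 7163 and 7031 against 7523 and 8121 (0.14 ± 0.055, adjusted p = 0.101). It also held for Ddx47, at 1652 and 1562 against 1440 and 1365 (-0.20 ± 0.079, adjusted p = 0.104).

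Ddx21, a nucleolar helicase of rRNA transcription and processing, had 4615 and 4708 on the control arrays and 4162 and 4398 after knockdown (log2 -0.12 ± 0.059, adjusted p = 0.163). Its close relative Ddx50 stood at -0.042. Ddx10, Ddx24, Ddx27, Ddx52 and Ddx54 lay within 0.05 of 0 (0.031, -0.0070, 0.043, 0.028 and -0.0033). Ddx51, Ddx31 and Ddx56 lay at 0.12, 0.10 and 0.089 and Ddx55 at -0.15. Dhx37, a helicase of small subunit assembly, had the widest spread of the group, with 119.5 and 69.1 against 167.7 and 82.5. Its 95% interval ran from -0.48 to 1.23, so a rise of 1.5-fold lay inside it and a fall of 1.5-fold did not.

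Helicases of mRNA export, translation, storage and decay held 2 of the rises and 1 of the falls, in 9 tested genes. Of all genes 11.7% rose and 8.81% fell. Ddx1, which was placed in this role, is also part of the tRNA ligase complex. It had 6622 and 6860 on the control arrays and 8168 and 8667 after knockdown. Both knockdown arrays were above both controls by more than the replicates differed. It rose 1.25-fold (log2 0.32 ± 0.054, adjusted p = 0.00198). Its other probe set had 5353 and 5443 against 5023 and 5539, with overlap (-0.033 ± 0.063), and the call ended when the probe sets were averaged (0.14, adjusted p = 0.126). The name of that probe set marks it as able to bind other transcripts (_x_at), unlike the one read.

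Ddx39b, also called UAP56, couples splicing to mRNA export. Its signals were 6718 and 6302 on the control arrays and 7390 and 7513 after knockdown, with no overlap (log2 0.20 ± 0.054, adjusted p = 0.0268). A further probe set gave 0.18 ± 0.057 and a dimmer one -0.82 ± 0.30, and the mean over probe sets was below 0 (-0.18, adjusted p = 0.314). Leaving out control replicate 2 ended the call (0.15, adjusted p = 0.171), as did leaving out knockdown replicate 1 (0.21, adjusted p = 0.0514) or knockdown replicate 2 (0.18, adjusted p = 0.0802). With no filter it just missed the threshold (adjusted p = 0.05001). Ddx39a, its close paralog, had overlapping groups, with 13833 and 14148 against 13974 and 13962 (-0.0022 ± 0.045, adjusted p = 0.980, 95% interval -0.10 to 0.097). At 1 of the other 4 probe sets of Ddx39a the signal was higher (0.18 ± 0.050, adjusted p = 0.0330 over probe sets). The rest were at -0.015, -0.11 and, for a dim one, 0.95 ± 0.45, and did not pass. The probe sets of both genes include several whose names mark them as able to bind other transcripts (_x_at). Whether the paralogs share signal was not tested.

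Ddx6 holds mRNA in a repressed state and is a core protein of processing bodies. It had 2287 and 2151 on the control arrays and 1886 and 1769 after knockdown, again without overlap. It fell 1.21-fold (log2 -0.28 ± 0.074, adjusted p = 0.0208). Both other probe sets above the filter were below 0, at -0.27 ± 0.15 and -0.40 ± 0.15. Leaving out control replicate 1 ended the call (-0.24, adjusted p = 0.126), as did leaving out knockdown replicate 2 (-0.23, adjusted p = 0.0875) or averaging the probe sets (-0.40, adjusted p = 0.112).

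The other members of this role did not pass. Dhx36, which unwinds G-quadruplexes, had 2218 and 2590 against 2054 and 2174 (log2 -0.18 ± 0.083, adjusted p = 0.152), and passed without control replicate 1 (-0.29, adjusted p = 0.0448). Dhx34, a factor of nonsense-mediated decay, had 248.7 and 232.2 against 201.0 and 177.3. Its difference of -0.35 ± 0.18 came with an adjusted p of 0.212 and a 95% interval from -0.75 to 0.056. Ddx19b, an mRNA export helicase, had 994.1 and 977.4 against 867.1 and 899.1 (-0.16 ± 0.090, adjusted p = 0.245). Ddx3x, a translation helicase on the X chromosome, had 11636 and 12120 against 11986 and 11647, and its groups overlapped (-0.0074 ± 0.048). Dhx29, which helps the small ribosomal subunit scan structured leaders, had 1063 and 1066 against 1036 and 1026 (-0.046 ± 0.085).

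The coregulator helicases Ddx5 and Ddx17, close paralogs that act in transcription, splicing and microRNA processing, did not pass at their brightest probe sets. Ddx5 had 13449 and 13350 on the control arrays and 12929 and 13220 after knockdown (log2 -0.035 ± 0.045, adjusted p = 0.634). All 6 probe sets of Ddx5 were below 0, however, and 2 of them passed among all probe sets. One of these went from 5625 and 5686 to 4376 and 4498 (-0.35 ± 0.057, adjusted p = 0.00215), and the other from 13860 and 14455 to 12763 and 10675 (-0.28 ± 0.072, adjusted p = 0.0260). Both that passed are of the _x_at kind, able by name to bind other transcripts, and the brightest is not. The reading of Ddx5 therefore depended on the probe set. Ddx17 had 10238 and 10976 against 10970 and 10717, with overlap (0.033 ± 0.052). The one read for Ddx17 is of the _x_at kind. Its 2 other probe sets are not, and they were at -0.045 and -0.13 and did not pass.

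Dhx9, also called RNA helicase A, had 7818 and 7556 against 8812 and 7939 (log2 0.12 ± 0.060, adjusted p = 0.176) and passed as higher without knockdown replicate 2 (0.20, adjusted p = 0.0454). Ddx20, or gemin 3, of the SMN complex that loads spliceosomal snRNAs, had 2262 and 2254 against 2208 and 2113 (-0.064 ± 0.068). No member of this role passed, so 0 of 4 did in limma, with 0 at an unadjusted p under 0.05. Over all genes these shares were 20.5% and 33.8%.

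Of the 2 mitochondrial members 1 passed, as lower, where 8.81% of all genes did. Dhx30, which acts in mitochondrial RNA granules and ribosome assembly, had 3501 and 3446 on the control arrays and 3003 and 3045 after knockdown (log2 -0.20 ± 0.061, adjusted p = 0.0382). That call held least well: it ended without each of the 4 arrays in turn, where the difference stayed between -0.21 and -0.19 and the adjusted p between 0.0742 and 0.154. It also ended with no filter, with a replicate block (adjusted p = 0.0609) and with averaged probe sets. A probe set of almost the same signal gave 3390 and 3031 against 3245 and 3302 (0.030 ± 0.071). The one read for Dhx30 is of the _x_at kind, able by name to bind other transcripts, and this other is not. Another of the _x_at kind had 2670 and 2584 against 2370 and 2208 (-0.20 ± 0.071) and did not pass. A dimmer one, not of that kind, was at -0.43 ± 0.20 and did not pass. Ddx28, which acts in assembly of the mitochondrial ribosome, had 844.3 and 783.7 against 721.4 and 704.8 without overlap (-0.19 ± 0.099, adjusted p = 0.207).

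The remaining members held the other rises. Dhx32, a less characterised DEAH box gene, had 854.3 and 884.2 on the control arrays and 1300 and 1125 after knockdown. It rose 1.39-fold (log2 0.48 ± 0.097, adjusted p = 0.00570). Its other probe set was far under the filter, with 29.2 and 27.3 against 4.49 and 7.81, and averaging with it turned the sign (-0.89, adjusted p = 0.0517). Ddx59, whose protein also carries a HIT-type zinc finger, had 1007 and 960.8 against 1314 and 1282. It rose 1.32-fold (0.40 ± 0.084, adjusted p = 0.00681) at its single probe set.

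Ddx11, a DNA helicase of sister chromatid cohesion, had 581.0 and 553.4 against 738.6 and 632.8 (log2 0.27 ± 0.12, adjusted p = 0.126). Its groups did not overlap but it did not pass. Dhx40 and Dhx57, both little studied, had overlapping groups at -0.017 and -0.12.

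**Figure D2:**
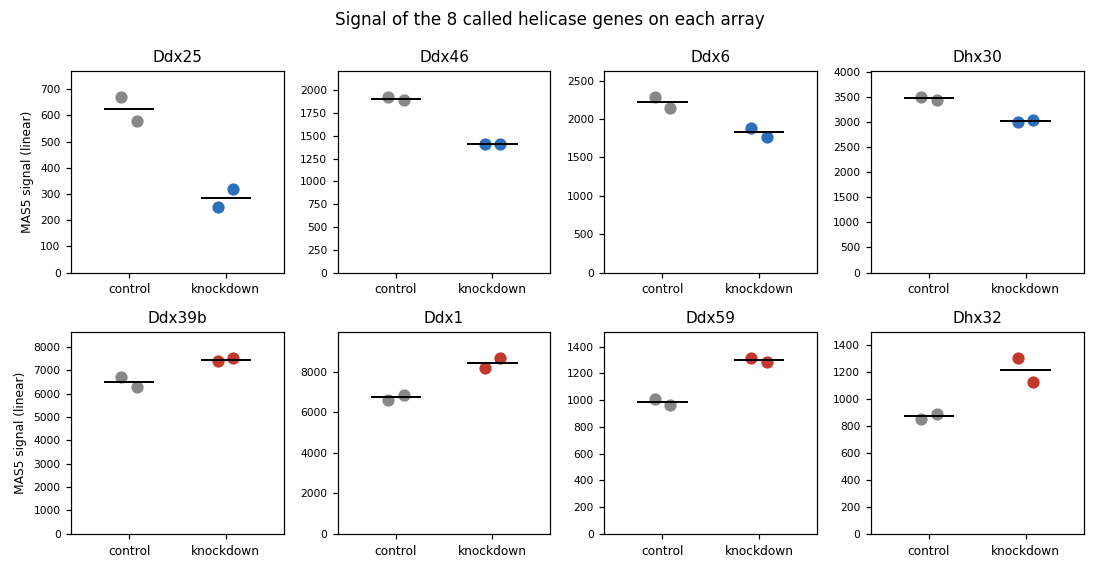
MAS5 signal on a linear scale from 0 (y axis) of the 8 helicase genes that passed, on the 2 control and 2 knockdown arrays (x axis); points are arrays and bars are group means. In every panel both knockdown arrays lie on the same side of both controls, with the largest fold for Ddx25 (251.9 and 318.6 against 669.8 and 579.2).

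Of the 39 tested members that did not pass, 36 had a 95% interval of the log2 difference inside a 1.5-fold change in either direction. The interval reached further for Dhx34, Dhx37 and Ddx55. The replicates of Ddx55 lay far apart, with 659.7 and 456.0 on the control arrays and 407.2 and 600.6 after knockdown. For the 36, a change of 1.5-fold would lie outside the interval, and smaller changes remain possible. This holds for the brightest probe set under the variance model with the trend. Some other readings went past 1.5-fold: Dhx9 and Ddx49 with averaged probe sets, dim ones included (-0.62 and -0.59). So did dim probe sets of Ddx27 (-0.64), Ddx49 (-0.65) and Ddx39a (0.95).

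Repeated readings of a gene on the same arrays differed in places. Of the 106 probe sets, 98 lay above the filter and 12 of them (12.2%) passed, 5 higher and 7 lower, where 14.2% of all probe sets did. Among 30 genes with more than 1 probe set above the filter, all probe sets had the same sign in 15 and mixed signs in 15. Ddx46, Ddx5 and Ddx6 were uniform, and Ddx1, Ddx39b and Dhx30 were mixed.

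**Figure D3:**
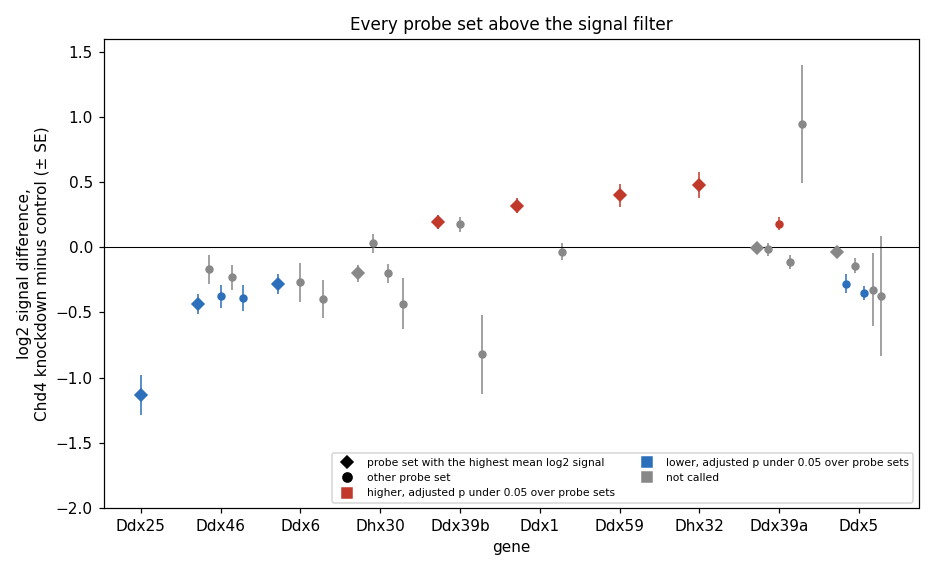
Log2 signal difference (Chd4 knockdown minus control, y axis, bars are standard errors, n = 2 arrays per group) of each probe set above the filter for the 8 called genes, Ddx39a and Ddx5 (x axis); diamonds are the brightest probe sets, which represent the genes. All 5 probe sets of Ddx46 and all 6 of Ddx5 lie below 0, whereas those of Ddx39b spread from -0.82 to 0.20.

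The start regions of 4 members are shown, since Ddx25, Ddx46 and Ddx59 lost their call in 1 and Ddx1 in 2 of 11 alternative settings, 2 lower and 2 higher genes with a single listed start. Each run is the 250 bases before the gene start, 5′ to 3′, from RefSeq on GRCm38.p6, with motif matches in capitals.
Ddx25, chr9:35558471-35558720, minus strand: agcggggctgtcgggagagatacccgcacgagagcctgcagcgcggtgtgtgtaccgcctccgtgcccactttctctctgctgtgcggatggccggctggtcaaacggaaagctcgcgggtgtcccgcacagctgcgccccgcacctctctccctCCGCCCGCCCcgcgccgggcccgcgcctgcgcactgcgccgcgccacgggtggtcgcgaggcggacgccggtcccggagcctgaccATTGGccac
Ddx46, chr13:55634749-55634998, plus strand: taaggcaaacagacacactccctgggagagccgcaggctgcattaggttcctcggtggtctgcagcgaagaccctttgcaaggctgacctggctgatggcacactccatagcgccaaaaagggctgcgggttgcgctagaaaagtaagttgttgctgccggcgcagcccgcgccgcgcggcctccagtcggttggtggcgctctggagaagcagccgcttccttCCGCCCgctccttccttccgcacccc
Ddx1, chr12:13249175-13249424, minus strand: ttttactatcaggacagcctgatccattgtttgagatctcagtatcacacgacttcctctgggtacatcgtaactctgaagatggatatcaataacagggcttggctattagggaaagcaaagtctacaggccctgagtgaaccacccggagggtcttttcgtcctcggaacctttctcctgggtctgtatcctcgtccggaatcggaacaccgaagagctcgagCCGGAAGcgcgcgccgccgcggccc
Ddx59, chr1:136415021-136415270, plus strand: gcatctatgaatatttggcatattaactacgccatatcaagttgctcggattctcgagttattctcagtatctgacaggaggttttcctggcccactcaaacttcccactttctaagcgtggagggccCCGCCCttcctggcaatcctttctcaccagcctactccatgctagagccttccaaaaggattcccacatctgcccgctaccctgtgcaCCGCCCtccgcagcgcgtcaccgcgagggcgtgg

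The motifs searched on both strands were the TATA box (TATAAA), the CCAAT box (CCAAT), the GC box (GGGCGG), the E-box (CACGTG) and an ETS motif (CCGGAAG). Ddx25 held 1 CCAAT box and 2 overlapping GC boxes, Ddx46 held 1 GC box, Ddx59 held 2 GC boxes and Ddx1 held 1 ETS motif. None of the 4 held a TATA box or E-box. Start regions were listed for 43 of the 48 members, as 54 windows.

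Over the members' windows a GC box was found in 53.7%, against 56.8% of 13059 windows of tested genes and 32.7% of all 32851 windows. An ETS motif was found in 31.5% of the members' windows, against 12.9% and 6.91%. A CCAAT box was found in 42.6%, against 34.9% and 33.8%. A TATA box was found in 5.56%, against 6.54% and 12.4% and an E-box in 9.26%, against 8.36% and 6.02%. The window of Ddx25 held 34 CpG pairs, more than in 96.5% of all windows, and those of Ddx46, Ddx1 and Ddx59 held 19, 17 and 13. The median was 18.5 in the members' windows and 15 in windows of tested genes. These are matches of letters and not sites, and no test was made of them.

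Genes that work with these helicases were read in 5 lists. Of 132 tested, 10 rose and 9 fell (14.4% in all), against 20.5% of all genes, 11.7% higher and 8.81% lower, with a median log2 difference of 0.025. Higher were 4 with averaged probe sets and 6 without control replicate 2, and without the intensity trend 1 was higher and 0 lower. The lists were written with earlier results of these data known. Related helicases under other symbols gave 3 rises and 0 falls among 12 in limma, with 6 at an unadjusted p under 0.05. The rises were 1 without control replicate 1, without knockdown replicate 1 or with the replicate block. Tdrd12, of the germline piRNA pathway, rose from 1004 and 897.4 to 1715 and 1781 (log2 0.88 ± 0.087, adjusted p = 5.8e-05). Ythdc2, a meiotic RNA helicase, and Dicer1, the microRNA processing enzyme, rose by 0.41 ± 0.12 and 0.27 ± 0.081 (adjusted p = 0.0331 and 0.0370).

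Nucleolar factors gave 3 rises and 4 falls among 62, with a median of 0.0034, and 1 rise without control replicate 1. In this list 4.84% rose and 6.45% fell, against 11.7% and 8.81% of all genes. Noc2l fell from 2066 and 1908 to 1475 and 1519 (log2 -0.41 ± 0.076, adjusted p = 0.00362). The GTPase gene Gnl3l and the RNA polymerase I factor gene Rrn3 fell by 0.33 and 0.31 on the log2 scale (adjusted p = 0.00576 and 0.00580). Utp14a, Gnl3 and Rrp1 rose by 0.27, 0.18 and 0.23 (adjusted p = 0.0140, 0.0221 and 0.0242).

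Among 20 genes of Ddx6-associated repression and decapping, 1 rose and 3 fell, at a median of 0.014, and 0 rose without control replicate 1. Patl1 and Lsm14a, direct partners of Ddx6, fell from 823.4 and 927.6 to 553.2 and 543.5 and from 4210 and 4058 to 3435 and 3447 (log2 -0.67 ± 0.11 and -0.26 ± 0.059, adjusted p = 0.00140 and 0.00909). The deadenylase gene Cnot6 fell by 0.29 and the decapping cofactor gene Dcp1a rose by 0.42 on that scale (adjusted p = 0.0229 and 0.0121). Of all genes 11.7% rose and 8.81% fell.

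Of 18 G-patch protein genes, a family that activates DEAH box helicases, 2 rose and 0 fell in limma, with 3 at an unadjusted p under 0.05. The rises were 1 without control replicate 2, and 1 with 2 falls without knockdown replicate 2. Rbm5 and Sugp1, both splicing factor genes, rose by 0.41 ± 0.064 and 0.33 ± 0.083 (adjusted p = 0.00120 and 0.0155). In the list of export, exon junction and nonsense-mediated decay genes, 1 of 20 rose and 2 fell. With each array left out in turn, or with the replicate block, 1 fell, and the rises were 3 without control replicate 1 and 0 without control replicate 2 or knockdown replicate 2. Thoc7, a TREX subunit gene, fell by 0.42 and the export cofactor gene Nxt1 by 0.21, while Rae1 rose by 0.25 (adjusted p = 0.000889, 0.0497 and 0.0188). The counts of both lists stand beside 11.7% of all genes higher and 8.81% lower.

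**Figure D4:**
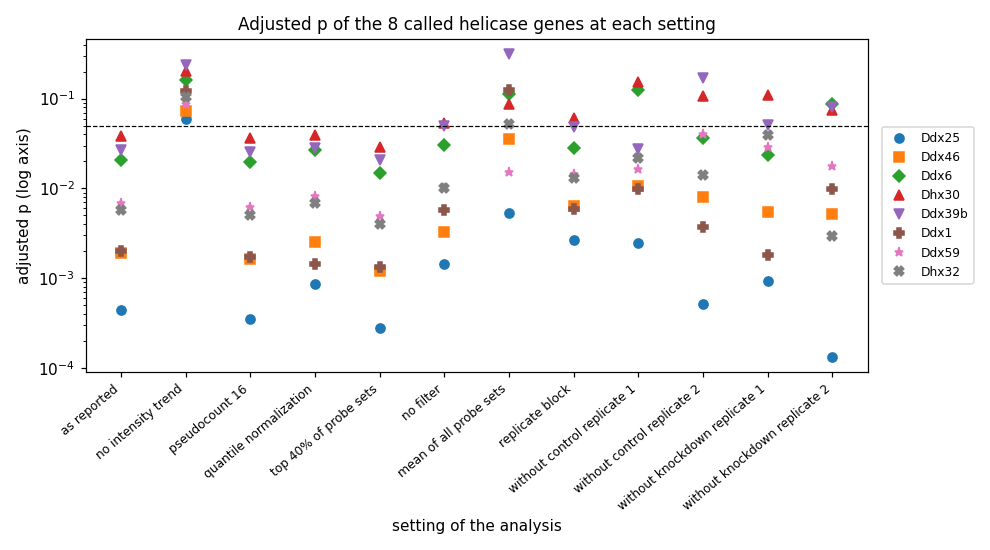
Adjusted p on a log axis (y axis) of the 8 called helicase genes as reported and at 11 other settings of the analysis (x axis); the dashed line marks 0.05. All 8 lie above the line without the intensity trend, and Ddx25, Ddx46 and Ddx59 lie under it at every other setting.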

How the data were processed

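Expression was measured on 4 Affymetrix mouse arrays hybridised with biotin-labelled cRNA from 6 ug of total RNA each. Per the labels, the deposited values are linear intensity signals made with MAS5; no source used here gives its version, scaling or detection calls. Groups came from the sample titles. Whether the duplicates were separate cultures beyond the series text's wording was not stated, so p-values rest on the spread between these arrays only. For each gene that spread was mostly borrowed from genes of like signal (prior degrees of freedom 9.12, residual 2).

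Of 45037 non-control probe sets, 34945 had 1 gene symbol, 932 several and 9160 none; only the first were used. The top 60% of probe sets by mean log2 signal were kept. A two-sided limma test (version 3.58.1, in R 4.3.3; lmFit, then eBayes with an intensity trend; residual degrees of freedom 2, prior 9.12) was run on log2 signals without pseudocount, adjusted by Benjamini-Hochberg over 12615 genes, threshold 0.05. Intervals are 95% limits from that fit. The number of arrays limits the precision.

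Members and lists were chosen with earlier results of these data known. Named with all array values were the members that passed, the paralogs Ddx5, Ddx17, Ddx3x and Ddx19b, and Ddx39a, whose signal was highest; of each partner list up to 3 genes with the smallest p in each direction were named. Values of members that did not pass were added after they were seen. A simulation of this comparison over 12615 genes altered 67 by 1.5-fold, 67 by 2-fold and 66 by 4-fold. The fit recovered 62.7%, 73.1% and 89.4% of these, in that order, and called 10 that were left unaltered. In the data 20.5% of genes passed, a larger share than the simulation altered, so these rates need not hold there. Whether the variance trend suits the data was not tested by it. Alternatives were the variance trend, a pseudocount of 16, quantile normalization, the filter, averaged probe sets, a replicate block and each array left out. Probe sets and tested genes were kept as in the reported fit except where the setting changes them.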

Additional observations from a re-analysis of the deposited data

How the results depend on the processing

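With the pseudocount, quantile normalization or the stricter filter the 8 called members remained called. With no filter all but Ddx39b and Dhx30 did, and with the replicate block all but Dhx30. Without the intensity trend 0 members were higher and 0 lower, and the partner lists gave 1 higher and 0 lower. At that setting 3.34% of all genes passed. With all probe sets averaged, dim ones included, 1 member was higher and 2 lower, and 4 partner genes were higher. There 11.8% of all genes passed. Each fit without a single array had only 1 array in a group, and fewer of all genes passed there than in the reported fit. Lower counts at those settings are therefore no result about the members or the partner lists. With single arrays left out the members higher were 3 to 4 and lower 2 to 3, the latter being 2 without knockdown replicate 2, and the partner genes higher were 6 to 9 (6 without control replicate 2) and lower 7 to 10. Counts within single partner lists, of 0 to 4 genes, moved by over 1.5 times in 37 of 110 list and setting pairs. Same-numbered replicates deviated with a correlation of 0.018, so the numbers were not taken as pairs; the replicate block gave 4 members higher and 3 lower and 2260 genes in all against 2592. Signs turned in 38 of 515 member and setting pairs, and of the called members only for Ddx39b and Dhx32, when probe sets were averaged. Under quantile normalization the log2 differences that turned were Ddx24 0.0059, Ddx54 0.0012. With averaged probe sets they were Ddx17 -0.047, Ddx19b 0.054, Ddx27 -0.30, Ddx39a 0.20, Ddx39b -0.18, Ddx3x 0.051, Ddx49 -0.59, Ddx50 0.096, Ddx52 -0.11, Dhx29 0.082, Dhx32 -0.89, Dhx9 -0.62. With single arrays left out the ranges that crossed 0 were Ddx10 -0.031 to 0.093, Ddx17 -0.018 to 0.083, Ddx23 -0.038 to 0.0023, Ddx24 -0.043 to 0.029, Ddx27 -0.034 to 0.12, Ddx31 -0.18 to 0.39, Ddx39a -0.018 to 0.014, Ddx3x -0.037 to 0.022, Ddx43 -0.057 to 0.12, Ddx52 -0.0073 to 0.063, Ddx54 -0.038 to 0.031, Ddx55 -0.43 to 0.13, Ddx56 -0.065 to 0.24, Dhx37 -0.14 to 0.88, Dhx38 -0.0043 to 0.32, Dhx40 -0.056 to 0.022, Dhx57 -0.26 to 0.016, Dhx8 -0.10 to 0.079. The cause was not tested. Signals near the filter limit what can be seen, as for Dhx37.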
